A study of Mus musculus with 9 samples.

Results

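The MYC, MAX and MXD network is a set of transcription factors that compete for one DNA-binding partner, the protein MAX. Its members were taken by gene symbol from the table of read counts. They were Myc, Mycn, Max, Mxd1, Mxd3, Mxd4, Mxi1, Mnt, Mga and Mlx, 10 of the 55453 lines of the table, and each symbol had 1 line. The counts came from RNA sequencing of ST2 cells. ST2 is one stromal line, derived from a long-term culture of mouse marrow, and the labels give its genotype as WT. The 9 libraries formed 3 groups of 3. Fed 24 h cells had been given human neutrophils for 24 h and fed 3 h cells for 3 h, in each case at 10 neutrophils per ST2 cell. Before feeding, the neutrophils were kept frozen (18 h or longer) and dyed with 20 µM eFluor670, a membrane stain, and fed cells were sorted for a dye signal of at least 1 whole neutrophil. Unfed 24 h cells received no neutrophils. The series title places the work in efferocytosis, the engulfment of dying cells, and its effect on osteoblastic differentiation through mitochondria.

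MYC binds DNA only as a dimer with MAX, usually at the E-box sequence CACGTG, and switches on genes of growth, ribosome production and cell division. MXD1, MXI1 (also called MXD2), MXD3, MXD4 and MNT bind the same sites with MAX and recruit SIN3 corepressors, so that they oppose MYC at shared targets. MGA also pairs with MAX, within a Polycomb complex called PRC1.6, and MLX dimerizes with MXD1, MXD4 and MNT and with the nutrient sensors MondoA and ChREBP in place of MAX. In fibroblasts Myc is an early response gene induced by growth factors.

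Some features of the libraries bear on every result. Total counts ran from 44442664 to 55971275 per library. There were no unfed libraries at 3 h, so feeding and time cannot be told apart in fed 3 h against unfed cells. Feeding and the sort for uptake also cannot be told apart in either comparison with unfed cells, and more RNA per cell cannot be told apart from more cells expressing a gene. The labels do not say that the 3 replicates of a group were separate cultures, so p-values measure only the spread between these libraries. Unfed replicate 1 stood apart from the other unfed libraries, at -20.69 on the first principal component of log2 CPM, against -6.131 and -7.513 for unfed replicates 2 and 3. Values without it are given beside the members, the lists, the balance of MYC against its repressors and the correlations with Myc where leaving it out changed a call or a count. Stromal markers summed to 31930 to 33690 CPM in fed 24 h, 25760 to 26410 CPM in fed 3 h and 29050 to 31250 CPM in unfed libraries. The largest were the collagens Col1a1 and Col1a2 and the chemokine Cxcl12. Cxcl12 averaged 7974 CPM in fed 24 h, 2275 CPM in fed 3 h and 5712 CPM in unfed libraries. In the same order Col1a1 averaged 12110, 13250 and 12570 CPM and Col1a2 11520, 9750 and 10940 CPM. On the same list, Eng, Nt5e and Lepr were at most 2.913 CPM in any library, and Thy1 was at or near 0. The 16 neutrophil markers, searched by mouse symbol, summed to 4.267 to 5.304 CPM in fed 24 h, 1.027 to 1.699 CPM in fed 3 h and 2.939 to 3.881 CPM in unfed libraries. Nearly all of it was Camp and Mmp9, and S100a9, Fpr1, Ngp and Retnlg were at 0 in every library. The 6 macrophage markers summed to 6.55 to 7.876 CPM in fed 24 h, 2.557 to 3.676 CPM in fed 3 h and 3.494 to 5.865 CPM in unfed libraries, most of it Lyz2, and Adgre1 was at 0 in every library. Lyz2 had 1070 counts in fed 24 h, 394 in fed 3 h and 605 in unfed libraries. In that order Csf1r had 35, 50 and 22, Mrc1 17, 18 and 12, Ptprc 5, 7 and 0 and Cx3cr1 0, 2 and 3. By the edgeR test described below, Csf1r was higher (log2 fold change 1.14, adjusted p = 0.0222) in fed 3 h than in unfed cells. Lyz2 was lower there (-0.66, edgeR adjusted p = 0.00779). The mitochondrial share of counts was 1.78 to 2.22% in fed 24 h libraries, above all others, 1.12 to 1.58% in fed 3 h and 1.48 to 1.61% in unfed libraries. The share of genes that collect ribosomal RNA reads was 0.201 to 0.35% in fed 24 h, 0.0927 to 0.249% in fed 3 h and 0.0904 to 0.115% in unfed libraries. The part of these shares and sums in the results was not tested.

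The sequences that the network reads and carries are shown first. In the RefSeq promoter windows of GRCm38.p6, which run from 250 bases before to 50 after a start site, 9 of the 10 members had a window. Myc was the member without a window, so its promoter was not searched. The E-box CACGTG, which reads the same on both strands, lay in the windows of 4 of those 9 genes, namely Max, Mxd4, Mnt and Mlx. Among protein-coding genes with a window, 1559 of 17492 (8.91%) held it. Each E-box is printed in capitals with 10 bases on either side.
Max, chr12:76962236-76962261, minus strand: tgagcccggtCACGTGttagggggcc
Mxd4, chr5:34187914-34187939, minus strand: gctgggccacCACGTGctgttgctaa
Mnt, chr11:74830791-74830816, plus strand: ccacccaagcCACGTGtgcgcgcgcg
Mlx, chr11:101087240-101087265, plus strand: tgggttggatCACGTGactgagcctc
The E-box of Max began 3 bases before its start site, that of Mlx 40, that of Mnt 123 and that of Mxd4 219. A match of letters is a description and does not show binding.

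Mxd1, Mxd3 and Mxd4 changed in the same direction in each comparison, as described below, and the 250 bases before their start sites are printed for that reason. Capitals mark the E-box CACGTG.
Mxd1, chr6:86669160-86669409, minus strand: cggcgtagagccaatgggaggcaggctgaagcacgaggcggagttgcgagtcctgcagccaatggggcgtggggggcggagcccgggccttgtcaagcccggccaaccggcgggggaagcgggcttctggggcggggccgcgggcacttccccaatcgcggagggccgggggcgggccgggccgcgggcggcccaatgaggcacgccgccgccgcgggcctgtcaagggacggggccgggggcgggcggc
Mxd3, chr13:55329732-55329981, minus strand: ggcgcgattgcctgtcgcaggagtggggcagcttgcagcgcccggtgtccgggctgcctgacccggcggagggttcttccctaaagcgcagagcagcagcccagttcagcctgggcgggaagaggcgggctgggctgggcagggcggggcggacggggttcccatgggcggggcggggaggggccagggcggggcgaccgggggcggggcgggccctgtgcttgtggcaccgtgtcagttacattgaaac
Mxd4, chr5:34187711-34187960, minus strand: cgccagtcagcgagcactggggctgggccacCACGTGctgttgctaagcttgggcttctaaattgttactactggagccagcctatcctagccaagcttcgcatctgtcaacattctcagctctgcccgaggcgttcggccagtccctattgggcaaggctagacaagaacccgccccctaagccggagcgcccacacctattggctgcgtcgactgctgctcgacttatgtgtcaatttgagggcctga
G or C made up 78.4% of the Mxd1 stretch, 73.2% of that of Mxd3 and 58.0% of that of Mxd4. The 3 stretches therefore differed in base composition, and the E-box was in that of Mxd4.

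Across the network, the fed 3 h cells had more Myc and less of the repressors Mxd1, Mxd3 and Mxd4 than unfed cells. The fed 24 h cells had slightly more of the same 3 repressors, less Mga and no called difference in Myc. By the edgeR quasi-likelihood test, with p adjusted by the Benjamini-Hochberg method over 13568 genes and called under 0.05, 9 of the 10 members were tested. Of these, 3 were higher and 1 was lower in fed 24 h than in unfed cells, where 30.8% of all genes were called. Of the 9, 3 were higher and 3 lower in fed 3 h against unfed cells, where 50.6% of all genes were called. Of the 9, 4 were higher and 3 lower in fed 24 h against fed 3 h cells, where 60.9% of all genes were called. With 50.6% and 60.9% of all genes called, the counts of members are descriptions of the network and not a result about it. Groups of libraries did not overlap for 4 of the 9 in fed 24 h against unfed cells (43.2% of all genes), for 5 in fed 3 h against unfed cells (58.2% of all genes) and for 7 in fed 24 h against fed 3 h cells (65.9% of all genes). Leaving out fed 24 h replicate 1 or 3, or unfed replicate 2 or 3, left 1 member called higher in fed 24 h against unfed cells, and leaving out fed 3 h replicate 1 left 1 called higher in fed 3 h against unfed cells. The 3 comparisons share libraries in pairs, so their values are given side by side. In the text, CPM are counts scaled to the TMM-adjusted library total, and errors are SD over 3 libraries or SE of a log2 fold change.

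**Figure D1:**
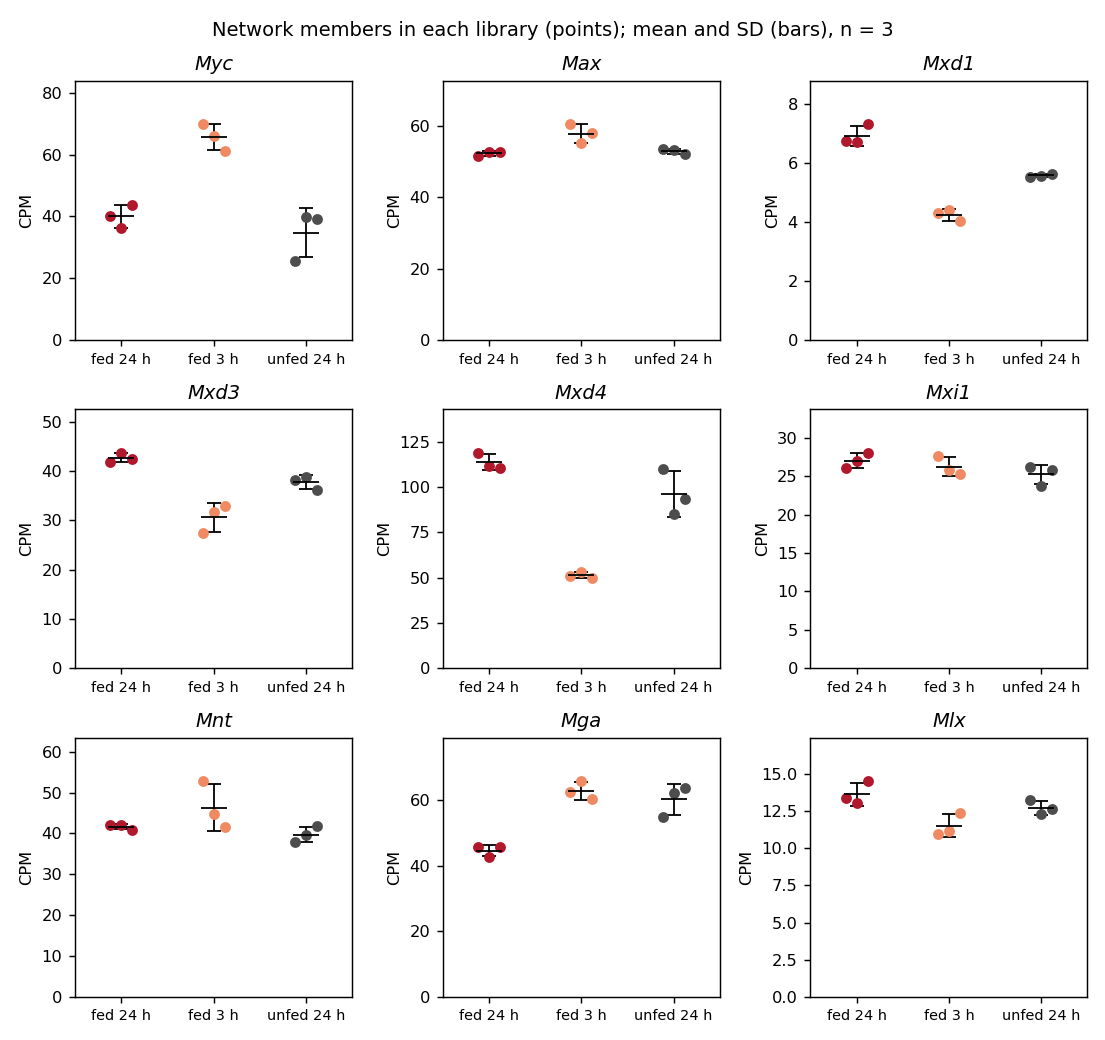
Level of each tested member in CPM (vertical axes, from 0) in the fed 24 h, fed 3 h and unfed 24 h libraries; points are libraries, and bars are the mean and SD of 3. Myc was 61.2 to 69.9 CPM in all fed 3 h libraries, above the 25.5 to 43.9 CPM of every other library, and Mxd4 was 49.9 to 53.1 CPM there, below every other library.

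Myc encodes the MYC oncoprotein itself (chromosome 15, 61985391 to 61990374, plus strand, GRCm38). It was 40.0, 36.3 and 43.9 CPM in fed 24 h libraries, 69.9, 66.1 and 61.2 CPM in fed 3 h libraries and 25.5, 39.7 and 39.2 CPM in unfed libraries. Every fed 3 h library lay above every other library, and the fed 24 h and unfed libraries overlapped. Myc rose by 0.92 on the log2 scale in fed 3 h against unfed cells (SE 0.120, edgeR adjusted p = 1.32e-05), or 1.89-fold. It fell by 0.72 on the log2 scale in fed 24 h against fed 3 h cells (SE 0.118, edgeR adjusted p = 7.63e-05). It was not called in fed 24 h against unfed cells, with a log2 fold change of 0.20 and a 95% interval from -0.06 to 0.46 (edgeR adjusted p = 0.226).

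The low library among the unfed ones was replicate 1, the same library that stood apart as a whole. Without it, the value for Myc in fed 24 h against unfed cells was 0.02 (edgeR adjusted p = 0.838), and that in fed 3 h against unfed cells was 0.74 (edgeR adjusted p = 6.95e-07). With no filter on low counts Myc was called in fed 24 h against unfed cells at nearly the same size (0.21, edgeR adjusted p = 0.00373). Over all alternatives of this comparison, its adjusted p ran from 0.00373 to 0.838.

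Mycn, the relative of Myc that is typical of embryonic and neural tissue (chromosome 12, 12936093 to 12941914, minus strand), had 0 counts in all 9 libraries. A limit of 3 counts corresponds to 0.0675 CPM in the smallest library and 0.0536 CPM in the largest, for counting error only. It was not tested, and Myc was the one of that pair with counts.

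Max encodes the shared partner (chromosome 12, 76937269 to 76962201, minus strand). It was 51.6, 52.8 and 52.7 CPM in fed 24 h libraries, 60.5, 55.1 and 57.9 CPM in fed 3 h libraries and 53.6, 53.2 and 52.2 CPM in unfed libraries. Max was therefore nearly level, with all fed 3 h libraries slightly above the rest. In fed 3 h against unfed cells it was called higher by 0.13 (SE 0.0452, edgeR adjusted p = 0.0279). Leaving out fed 3 h replicate 1 (0.10) or 3 (0.13) ended this call, as did leaving out unfed replicate 3 (0.12), using no filter (0.13) and using library totals in place of TMM (0.08). Max was not called in fed 24 h against unfed cells, with a 95% interval from -0.11 to 0.08 on the log2 scale. It fell by 0.14 in fed 24 h against fed 3 h cells (SE 0.0450, edgeR adjusted p = 0.0115), a call that ended without fed 3 h replicate 1 (-0.11) or with library totals (-0.09).

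Mxd4 had the largest changes of the MXD family in both comparisons with fed 3 h cells. It encodes a repressor associated with cells that leave the cell cycle (chromosome 5, 34173883 to 34187720, minus strand). Its levels were 118.9, 111.8 and 110.3 CPM in fed 24 h libraries, 50.9, 53.1 and 49.9 CPM in fed 3 h libraries and 109.7, 84.9 and 93.2 CPM in unfed libraries. The 3 groups did not overlap, although the highest unfed library, replicate 1, came within 1 CPM of the lowest fed 24 h library. Mxd4 fell by 0.90 on the log2 scale in fed 3 h against unfed cells (SE 0.0722, edgeR adjusted p = 8.04e-08), to 0.535 of the unfed level, and by 0.80 without unfed replicate 1. It rose by 1.148 in fed 24 h against fed 3 h cells (SE 0.0720, edgeR adjusted p = 2.51e-09), or 2.22-fold.

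Mxd4 rose by 0.25 in fed 24 h against unfed cells (SE 0.0700, edgeR adjusted p = 0.0152). Without unfed replicate 1 the value was 0.35 (edgeR adjusted p = 0.000128). It was not called when fed 24 h replicate 1 (0.22), unfed replicate 2 (0.17) or unfed replicate 3 (0.23) was left out, with edgeR adjusted p up to 0.0735. Over 514 bases, or 6.06% of its exons, the gene overlaps the antisense gene Gm42846, which had almost no counts.

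Mxd1 encodes a founding member of the family, a protein known from differentiating cells (chromosome 6, 86647042 to 86669161, minus strand). It was the least abundant tested member, at 6.74, 6.73 and 7.32 CPM in fed 24 h libraries, 4.30, 4.39 and 4.02 CPM in fed 3 h libraries and 5.54, 5.57 and 5.63 CPM in unfed libraries. The 3 groups did not overlap, with fed 24 h highest and fed 3 h lowest. Mxd1 rose by 0.31 in fed 24 h against unfed cells (SE 0.0883, edgeR adjusted p = 0.0143), a call that ended without fed 24 h replicate 3 (0.28, edgeR adjusted p = 0.0626). In fed 3 h against unfed cells it fell by 0.40 on the log2 scale (SE 0.0925, edgeR adjusted p = 0.00207). It rose by 0.71 in fed 24 h against fed 3 h cells (SE 0.0904, edgeR adjusted p = 5.33e-06). Human neutrophils also express the human counterpart of this gene. Camp and Mmp9, which had counts in unfed cells too, were on average highest in fed 24 h and lowest in fed 3 h libraries. S100a8 and Cxcr2 had 2 counts each in fed 3 h and 0 in unfed libraries, with 1 and 0 in fed 24 h. Ltf had 5 counts in fed 24 h, 1 in fed 3 h and 0 in unfed libraries. In the same order Mmp8 had 5, 0 and 0 and Mpo had 23, 8 and 20. The remaining neutrophil markers had at most 2 counts in a group. The part of neutrophil RNA in the Mxd1 values was not tested.

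Mxd3 encodes a family member that, unlike the others, is known from cells in S phase (chromosome 13, 55325168 to 55329823, minus strand). It was 41.9, 43.8 and 42.5 CPM in fed 24 h libraries, 27.4, 31.7 and 33.0 CPM in fed 3 h libraries and 38.2, 38.9 and 36.2 CPM in unfed libraries. As with Mxd1 and Mxd4, the groups did not overlap, with fed 3 h lowest and fed 24 h highest. Mxd3 fell by 0.30 on the log2 scale in fed 3 h against unfed cells (SE 0.0622, edgeR adjusted p = 0.000869), and in fed 24 h against fed 3 h cells it rose by 0.48 (SE 0.0615, edgeR adjusted p = 6.14e-06). It was called higher by 0.18 in fed 24 h against unfed cells (SE 0.0609, edgeR adjusted p = 0.0366). That call ended when any 1 of the 6 libraries compared was left out, with values from 0.15 to 0.20 and adjusted p up to 0.145. Mxd3 shares 105 bases (4.43% of its exons) with Prelid1 on the opposite strand. Prelid1 was far more abundant, at 421.7 CPM on average in fed 24 h, 394.1 CPM in fed 3 h and 443.3 CPM in unfed cells, so the count of Mxd3 is uncertain if strand was not used.

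Mxi1, the remaining MXD gene (chromosome 19, 53310518 to 53375810, plus strand), is known to be induced in hypoxia. It was 26.1, 26.9 and 28.1 CPM in fed 24 h libraries, 27.6, 25.8 and 25.3 CPM in fed 3 h libraries and 26.2, 23.8 and 25.8 CPM in unfed libraries. All 3 groups overlapped, and no comparison was called. The 95% intervals of the log2 fold change ran from -0.02 to 0.22 in fed 24 h against unfed, from -0.06 to 0.18 in fed 3 h against unfed and from -0.08 to 0.16 in fed 24 h against fed 3 h cells. Mxd1, Mxd3 and Mxd4 were called in all 3 comparisons, and whether the fold changes of Mxi1 differ from theirs was not tested.

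Mnt encodes the repressor found in most cell types, dividing or not (chromosome 11, 74830920 to 74845725, plus strand). It was 42.1, 42.0 and 40.9 CPM in fed 24 h libraries, 52.8, 44.6 and 41.5 CPM in fed 3 h libraries and 37.9, 39.5 and 41.7 CPM in unfed libraries. The fed 3 h libraries were widely spread and overlapped both other groups. Mnt was called higher by 0.22 in fed 3 h against unfed cells (SE 0.0708, edgeR adjusted p = 0.0161), opposite in sign to Mxd1, Mxd3 and Mxd4. It lost the call when fed 3 h replicate 1 (0.12, edgeR adjusted p = 0.103) or unfed replicate 1 (0.19, edgeR adjusted p = 0.0548) was left out. It was not called in fed 24 h against unfed cells (0.07, 95% interval from -0.08 to 0.22). In fed 24 h against fed 3 h cells it was not called either (-0.15, edgeR adjusted p = 0.0730), but it was without fed 3 h replicate 3 (-0.23, edgeR adjusted p = 0.00959) or with no filter (-0.15, edgeR adjusted p = 0.0327).

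**Figure D2:**
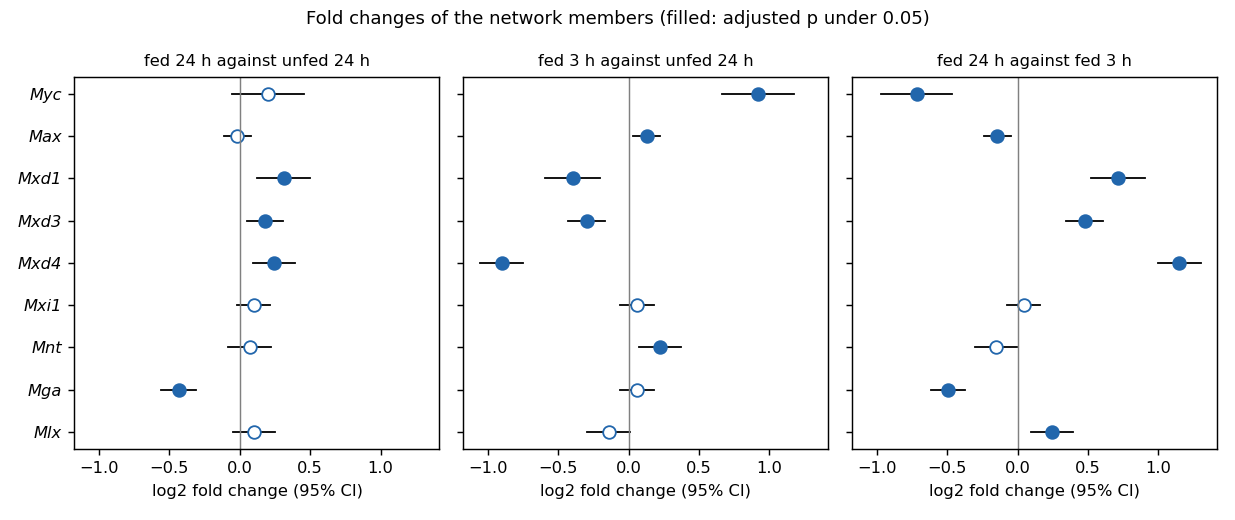
Log2 fold changes of the 9 tested members (points) with 95% intervals (lines) in the 3 comparisons, filled where the edgeR adjusted p was under 0.05. Mxd1, Mxd3 and Mxd4 lie left of 0 in fed 3 h against unfed cells, where Myc lies at 0.92, and right of 0 in the other panels.

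Mga was the member with the largest change in the time-matched comparison. It encodes the largest protein of the network, which carries a T-box DNA-binding domain as well as the MAX-binding domain (chromosome 2, 119897228 to 119969581, plus strand). Mga was 45.6, 42.6 and 45.6 CPM in fed 24 h libraries, 62.3, 65.8 and 60.3 CPM in fed 3 h libraries and 54.9, 62.1 and 63.7 CPM in unfed libraries. All fed 24 h libraries lay below all others, and the fed 3 h and unfed libraries overlapped. Mga fell by 0.43 on the log2 scale in fed 24 h against unfed cells (SE 0.0581, edgeR adjusted p = 9.57e-05), to 0.740 of the unfed level. The value was -0.50 without unfed replicate 1, and the call held under every alternative run, with values from -0.50 to -0.39. It fell by 0.49 in fed 24 h against fed 3 h cells (SE 0.0580, edgeR adjusted p = 2.27e-06). It was not called in fed 3 h against unfed cells (0.06, 95% interval from -0.06 to 0.18).

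PRC1.6, the complex of MGA, silences germline genes outside the germline. The counts of called genes in this and the other lists stand beside 30.8% of all genes called in fed 24 h against unfed, 50.6% in fed 3 h against unfed and 60.9% in fed 24 h against fed 3 h cells. Of the 9 listed partners in PRC1.6, 1 was higher and 2 were lower in fed 24 h than in unfed cells, with a median log2 fold change of -0.04 where that of all genes was -0.00126. The PRC1 subunit Rybp rose (0.20), and the chromatin reader L3mbtl2 (-0.16) and Tfdp1, the dimer partner of E2F factors (-0.16), fell. Among them 5 were higher and 2 lower in fed 3 h against unfed cells, with rises in Pcgf6 (0.55), the Polycomb subunit that defines the complex, Yaf2 (0.54) and E2f6 (0.34) and falls in Rybp (-0.48) and Ring1 (-0.26). Rybp and Yaf2 are related subunits that occupy the same place in PRC1. Of the 9 partners, 2 were higher and 6 lower in fed 24 h against fed 3 h cells, with Rybp at 0.67 and Pcgf6 at -0.63 on the log2 scale. The 6 germline genes listed as silenced by the complex had few or no counts. Stag3 had 2 in all fed 24 h libraries and 0 in fed 3 h and unfed libraries. Taf7l had 1 in fed 24 h, 3 in fed 3 h and 0 in unfed libraries, and Ddx4, Mael, Tdrd1 and Slc25a31 had 0 in every library. At such counts no difference could be detected.

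Mlx encodes the partner in the nutrient-sensing arm (chromosome 11, 101087277 to 101092207, plus strand). It was 13.4, 13.1 and 14.5 CPM in fed 24 h libraries, 11.0, 11.2 and 12.4 CPM in fed 3 h libraries and 13.2, 12.3 and 12.7 CPM in unfed libraries. The fed 24 h libraries lay above the fed 3 h libraries and overlapped the unfed ones. In fed 24 h against fed 3 h cells Mlx rose by 0.24 (SE 0.0694, edgeR adjusted p = 0.00648). It was not called in fed 24 h against unfed cells (0.10, 95% interval from -0.05 to 0.25). It was not called in fed 3 h against unfed cells (-0.14, edgeR adjusted p = 0.103), but it was without fed 3 h replicate 3 (-0.20, edgeR adjusted p = 0.0439) and with library totals (-0.19, edgeR adjusted p = 0.0479). Psmc3ip, on the opposite strand, shares 19.26% of the exon length of Mlx and averaged 14.2 CPM in fed 24 h, 16.2 CPM in fed 3 h and 14.1 CPM in unfed cells, so the count of Mlx is uncertain without strand.

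Mlxip, which encodes MondoA, fell by 0.15 in fed 24 h against unfed cells (edgeR adjusted p = 0.0453), a call that ended without unfed replicate 1 (-0.14, edgeR adjusted p = 0.0666), and Mlxipl, which encodes ChREBP, had almost no counts. The arrestin-domain genes Txnip, which limits glucose uptake, and Arrdc4 are known targets of MondoA and MLX. They moved in opposite directions in all 3 comparisons. Txnip was 10.7, 11.8 and 10.6 CPM in fed 24 h libraries, 41.4, 39.4 and 41.7 CPM in fed 3 h libraries and 14.5, 13.8 and 17.2 CPM in unfed libraries. Arrdc4 was 153.7, 152.6 and 160.5 CPM in fed 24 h libraries, 64.7, 64.2 and 70.7 CPM in fed 3 h libraries and 125.7, 98.4 and 105.7 CPM in unfed libraries. Neither gene had overlapping groups in any comparison. Txnip rose by 1.43 in fed 3 h against unfed cells (edgeR adjusted p = 5.57e-10) and Arrdc4 fell by 0.72 (edgeR adjusted p = 7.17e-07). Txnip fell by 0.46 in fed 24 h against unfed cells (edgeR adjusted p = 0.000524) and Arrdc4 rose by 0.50 (edgeR adjusted p = 0.00013).

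Levels can be compared between members only per length, and CPM were divided by the kilobases of all annotated exons of a gene in GENCODE M21. Since exons of rarely used isoforms count in full, these levels are approximate, and more so for Mxd4, Mxd1 and Mga with their long exons. In fed 24 h cells the order was Mxd3 (18.0 ± 0.396 CPM per kb, SD, n = 3), Myc (14.7 ± 1.39), Max (14.6 ± 0.180), Mxd4 (13.4 ± 0.544), Mnt, Mlx, Mxi1, Mga and Mxd1 (0.980 ± 0.0477). In fed 3 h cells Myc came first (24.2 ± 1.603 CPM per kb), before Max (16.1 ± 0.746), Mxd3 (12.95 ± 1.24), Mnt (10.0 ± 1.26) and Mxd4 (6.05 ± 0.197). In unfed cells the order was Mxd3 (15.9 ± 0.582 CPM per kb), Max (14.7 ± 0.195), Myc (12.8 ± 2.97) and Mxd4 (11.3 ± 1.49), with Mxd1 last. Among neighbours in these orders, the ranges over libraries overlapped for Myc and Max in fed 24 h cells, for Mxd4 and Mlx and for Mga and Mxi1 in fed 3 h cells. In unfed cells they overlapped for Max and Myc, for Myc and Mxd4 and for Mga and Mxi1. Mxd1 was last in all 3 groups, and Myc was first in fed 3 h cells alone.

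The balance of MYC against its MAX-binding repressors can be read within a library, where it does not depend on how libraries are scaled. It was taken as Myc over the sum of Mxd1, Mxd3, Mxd4, Mxi1 and Mnt, each in CPM per kb. The ratio was 0.323, 0.293 and 0.359 in fed 24 h libraries, 0.765, 0.723 and 0.682 in fed 3 h libraries and 0.224, 0.373 and 0.362 in unfed libraries. Every fed 3 h library had a higher ratio than every other library, and the fed 24 h and unfed libraries overlapped, through unfed replicate 1 alone. The sum of the 5 repressors was 45.4 ± 0.387 CPM per kb in fed 24 h, 33.4 ± 0.357 in fed 3 h and 40.3 ± 1.37 in unfed cells (SD, n = 3 each), so the numerator and the denominator both differed. The ratio of Myc to Max was 1.01 ± 0.0963 in fed 24 h, 1.51 ± 0.0963 in fed 3 h and 0.871 ± 0.209 in unfed cells, or 0.990 and 0.994 in the unfed libraries other than replicate 1. Mxd4 made up 36.8 ± 1.37% of the summed MXD level in fed 24 h, 25.8 ± 1.31% in fed 3 h and 35.5 ± 2.92% in unfed cells. These are ratios of mRNA, and the members were chosen as a set, so no test is given for them.

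**Figure D3:**
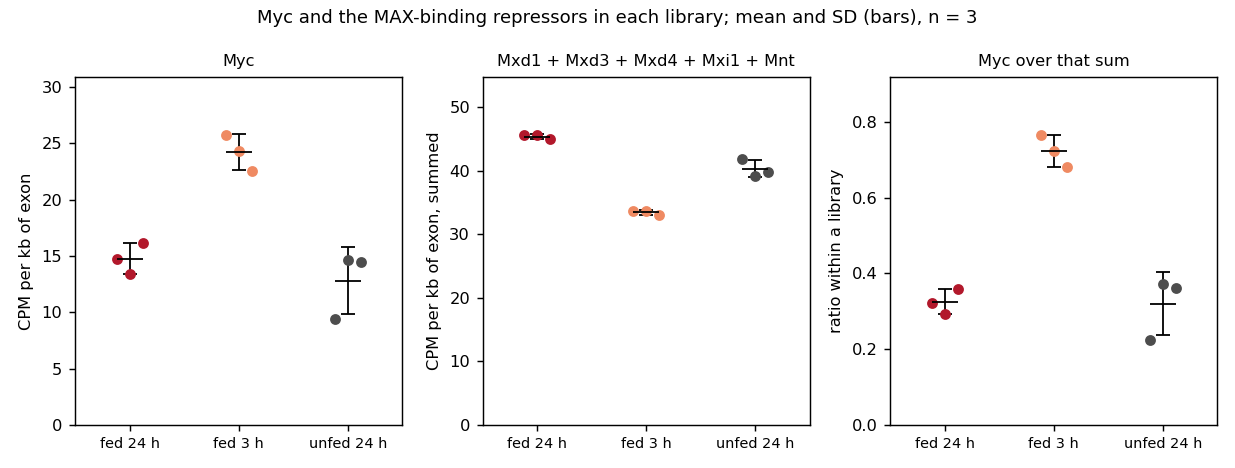
Myc (left) and the sum of Mxd1, Mxd3, Mxd4, Mxi1 and Mnt (middle), both in CPM per kb of exon, and the ratio of Myc to that sum within each library (right); points are libraries, and bars are the mean and SD of 3. The ratio was 0.682 to 0.765 in the fed 3 h libraries and 0.224 to 0.373 in the others.

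Most listed genes that MYC is known to switch on were higher in fed 3 h cells and lower in fed 24 h cells than in unfed cells. The list had 34 genes of ribosome production, nucleotide and polyamine synthesis and cell cycle entry. Like the members, it was chosen with earlier results in view and is no independent evidence of a direction. Among them 29 were higher and 2 lower in fed 3 h against unfed cells, with a median log2 fold change of 0.44 where that of all genes was -0.0085, and 25.1% of all genes were called higher. The largest rises were in Gnl3 (0.95), which encodes nucleostemin, Nolc1 (0.83), a nucleolar phosphoprotein, and Rrs1 (0.75), a ribosome assembly factor. Ccnd2, a D cyclin (-0.24), and Ldha, lactate dehydrogenase A (-0.20), fell. Without unfed replicate 1 the counts were again 29 and 2.

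Of the 34 targets, 26 were lower and the other 8 were not called in fed 24 h against unfed cells, with a median of -0.28, and 15.9% of all genes were called lower. Without unfed replicate 1, in which Myc was lowest, 30 were lower. Polr1b, a subunit of RNA polymerase I, was 16.7, 19.6 and 15.9 CPM in fed 24 h libraries, 41.3, 38.3 and 42.4 CPM in fed 3 h libraries and 23.8, 31.2 and 27.3 CPM in unfed libraries. It had the largest fall of the list in fed 24 h against unfed cells (-0.66, SE 0.0903, edgeR adjusted p = 0.000123), and its 3 groups did not overlap. Odc1, the rate-limiting enzyme of polyamine synthesis, was 87.0, 85.7 and 83.2 CPM in fed 24 h libraries, 167.8, 167.4 and 173.0 CPM in fed 3 h libraries and 115.7, 124.9 and 127.4 CPM in unfed libraries. Its fall in fed 24 h against unfed cells was 0.52 on the log2 scale (SE 0.0444, edgeR adjusted p = 3.4e-06). Myc itself was not called in this comparison.

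Of the same 34 genes, 32 were lower and 1 higher in fed 24 h against fed 3 h cells, with a median of -0.80, and 30.2% of all genes were called lower. Polr1b (-1.22), Gnl3 (-1.16) and Tfap4 (-1.11), a transcription factor induced by MYC, had the largest falls. The higher gene was Ccnd2 (0.12), and it was not called when fed 24 h replicate 1, fed 3 h replicate 2 or fed 3 h replicate 3 was left out.

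Of the 26 target genes with a RefSeq promoter window, 9 (34.6%) held CACGTG, against 8.91% of protein-coding genes with a window. The related sequence CACGCG, searched on both strands and unable to overlap CACGTG, lay in the windows of 12 (46.2%), against 13.7%. Since the list was chosen as genes that MYC is known to switch on, these shares describe the list and are no evidence about these cells. For 6 of these 9 targets an E-box that lies before a start site is printed in capitals with its flanks, to show the sequence that MYC and MXD dimers share. The printed box is the nearest to a start site among those extracted for that gene. Extraction did not cover every E-box, so a nearer one may exist, and the remaining targets with CACGTG are not printed.
Nop2, chr6:125131813-125131838, plus strand: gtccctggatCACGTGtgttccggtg
Ldha, chr7:46845746-46845771, plus strand: gcccagcctaCACGTGggttcccgca
Cdk4, chr10:127063427-127063452, plus strand: agcaacaggtCACGTGgccgtcaggg
Nme1, chr11:93968275-93968300, minus strand: tgcggggaacCACGTGaggccgggga
Eif4e, chr3:138527194-138527219, plus strand: acacgtccgtCACGTGggcaggagcc
Hspd1, chr1:55088308-55088333, minus strand: ccggctgggaCACGTGaaaaggccgc
Of these, Nop2, a nucleolar methyltransferase (0.61), Hspd1, a mitochondrial chaperone (0.39), Eif4e, the cap-binding translation factor (0.24), and Nme1, a nucleoside diphosphate kinase (0.17), rose in fed 3 h against unfed cells. Ldha fell (-0.20), and Cdk4, the kinase of D cyclins, was not called (0.02). The 6 printed targets therefore included genes that rose and Ldha, which fell.

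Genes that MYC is known to repress were 9, of which 8 were tested. Among them 2 were higher and 4 lower in fed 3 h against unfed cells, with a median of -0.17. Cdkn1b, a cell cycle inhibitor (-0.30), and Pdgfrb, a receptor for platelet-derived growth factor (-0.31), fell, and Gadd45a, a stress-induced gene (0.70), and Thbs1, which encodes thrombospondin 1 (0.30), rose. The other falls were the largest of the list and came from low levels, in Ndrg2 (-1.19, at 0.881 CPM in unfed cells) and in the cell cycle inhibitor Cdkn2b (-0.74, at 1.61 CPM in unfed cells). In fed 24 h against fed 3 h cells 5 were higher and 1, Thbs1 (-0.21), lower. The higher genes were Ndrg2 (1.26), Cdkn2b (0.99), Pdgfrb (0.36), Cdkn1b (0.31) and Cdkn1a (0.12), which encodes p21. Gadd45a was the 1 gene higher in fed 24 h against unfed cells (0.60), and the other 7 were not called. Ndrg1 was also called, once unfed replicate 1 was left out, higher in fed 24 h (0.18) and in fed 3 h (0.22) against unfed cells. Ndrg1, Ndrg2, Cdkn2b and the 24 h value of Gadd45a were named after their values were seen.

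**Figure D4:**
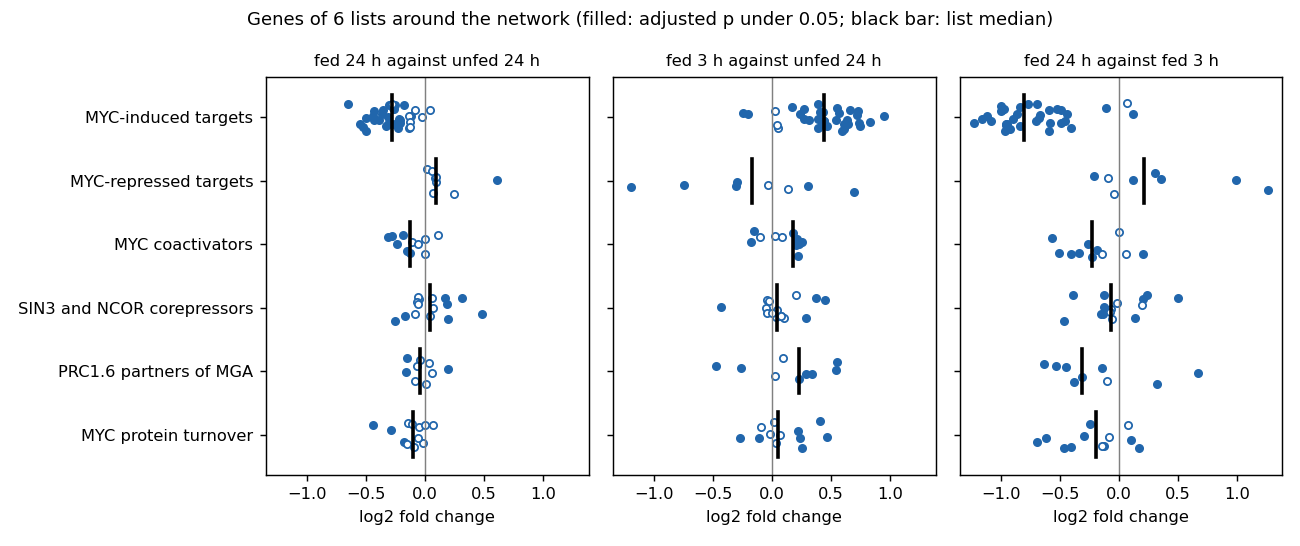
Log2 fold changes of the genes of 6 lists (points, filled where the edgeR adjusted p was under 0.05) with the list median (black bar) in the 3 comparisons. The median of the MYC-induced targets was -0.28 in fed 24 h against unfed, 0.44 in fed 3 h against unfed and -0.80 in fed 24 h against fed 3 h cells.

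The cofactors through which the network acts had list medians nearer 0 than the MYC-induced targets. Of 11 MYC coactivators, 6 were lower and the other 5 not called in fed 24 h against unfed cells (median -0.13), with falls in the ATPase Ruvbl2 (-0.31), the elongation cyclin Ccnt1 (-0.28) and the acetyltransferase Kat2a (-0.23), and the large scaffold Trrap (-0.14) was also called lower once unfed replicate 1 was left out. Among them 6 were higher and 2 lower in fed 3 h against unfed cells (median 0.18). Ruvbl2 (0.26) and Ccnt1 (0.22) rose, and Trrap (-0.17) and its partner Ep400 (-0.16) fell. Among them 7 were lower and 1 higher in fed 24 h against fed 3 h cells (median -0.23), the higher one being the acetyltransferase Kat5 (0.21).

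Of 15 genes of the SIN3 and NCOR corepressors, through which MXD and MNT act or which share subunits with them, 5 were higher and 2 lower in fed 24 h against unfed cells (median 0.04). Arid4b (0.48) and Arid4a (0.31), subunits of SIN3 complexes, and Ncor1 (0.19) rose, the last not being called without unfed replicate 1 (0.15), while Hdac3 then was (0.13). Sap30 (-0.26) and Rbbp4 (-0.17) fell. Among them 3 were higher and 1 lower in fed 3 h against unfed cells (median 0.05), with a rise in Arid4a (0.37) and a fall in the deacetylase Hdac3 (-0.43). Among them 4 were higher and 6 lower in fed 24 h against fed 3 h cells (median -0.06), and Sin3a was called lower by 0.13. Sin3a and Sin3b themselves were not called in either comparison with unfed cells.

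MYC protein is short-lived, and 12 genes of its turnover were listed. In fed 24 h against unfed cells 3 were lower and the other 9 not called (median -0.10). These were Skp2, a ubiquitin ligase subunit for MYC (-0.44), Usp36, a nucleolar deubiquitinase of MYC (-0.29), and Huwe1, another ubiquitin ligase (-0.18), with the mitotic kinase Aurka (-0.20) also called lower once unfed replicate 1 was left out. Among them 5 were higher and 2 lower in fed 3 h against unfed cells (median 0.05), with rises in Fbxw7, the subunit that recognises phosphorylated MYC (0.47), Usp36 (0.41) and Aurka (0.26). Falls were in Btrc (-0.27) and Gsk3b, a kinase that marks MYC for destruction (-0.11), while Gsk3a, which encodes the related kinase, rose (0.22). Among them 2 were higher and 7 lower in fed 24 h against fed 3 h cells (median -0.19).

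A list of 10 genes that act on the Myc gene or its mRNA had 2 lower in fed 24 h against unfed cells, Elavl1 (-0.28), which stabilises mRNAs, and Fubp1 (-0.23), which binds far upstream of the Myc promoter in human cells. Without unfed replicate 1, 4 were lower, with Igf2bp3 (-0.19) and Hnrnpd (-0.17) added. Among them 2 were higher in fed 3 h against unfed cells, the RNA-binding proteins Hnrnpd (0.24) and Hnrnpk (0.17), and 3 lower. The falls were in Igf2bp2 (-1.41, edgeR adjusted p = 4.24e-06) and Igf2bp1 (-0.75, edgeR adjusted p = 0.00428), of a family of RNA-binding proteins that stabilise Myc mRNA, and in the insulator protein Ctcf (-0.13). Igf2bp2 was 3.84 CPM on average in fed 24 h, 1.29 CPM in fed 3 h and 3.42 CPM in unfed cells, and Igf2bp1 was 1.05 CPM in fed 24 h, 0.677 CPM in fed 3 h and 1.14 CPM in unfed cells. These family members were named after their values were seen. Among them 3 were higher and 5 lower in fed 24 h against fed 3 h cells (median -0.14), with rises in Igf2bp2 (1.58), Igf2bp1 (0.63) and Ctcf (0.13) and with Hnrnpd (-0.37) and Elavl1 (-0.30) among the falls. Pvt1, the long noncoding RNA next to Myc, was 9.87 CPM on average in fed 24 h, 11.5 CPM in fed 3 h and 11.1 CPM in unfed cells and was not called in either comparison with unfed cells.

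The members were also compared by their pattern over the 9 libraries, as a description, since the libraries fall into groups. On log2 CPM, Pearson's r with Myc was 0.767 for Mnt, 0.736 for Max and 0.453 for Mga, and it was -0.866 for Mxd4, -0.745 for Mxd3, -0.677 for Mlx and -0.664 for Mxd1, with 0.113 for Mxi1. Without unfed replicate 1 each kept its sign, at 0.701 for Mnt, 0.882 for Max, -0.927 for Mxd4, -0.897 for Mxd3 and -0.850 for Mxd1. Among 8709 tested genes with a mean of at least 10 CPM, the 5 most like Myc were Utp14a, a small-subunit processome factor (r = 0.992), Ubtf, a transcription factor for RNA polymerase I (0.988), Spen, a transcriptional corepressor (0.987), Zfp598, which senses collided ribosomes (0.985), and Rfc1, the large subunit of the clamp loader (0.983). Over the 8 libraries without unfed replicate 1 their r was 0.971 to 0.991, and their ranks among these genes were 8 to 160. Utp14a was 33.7 ± 1.06 CPM in fed 24 h, 47.5 ± 1.14 CPM in fed 3 h and 31.0 ± 3.90 CPM in unfed cells (SD, n = 3 each). All 5 were called higher in fed 3 h against unfed cells, by 0.29 to 0.61 on the log2 scale. They were not called in fed 24 h against unfed cells. Since the 5 were picked for their likeness to Myc over these libraries, sharing its calls is no further evidence of likeness.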

How the data were processed

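The deposited table holds whole-number read counts by gene symbol for each library, and the values show no normalization by the authors. MultiQC 1.7, STAR 2.7.0f and Subread 1.6.4 (featureCounts) are named in the submitters' processing notes, as are the builds GRCm38.p6 and GRCh38.p13. How the human build was used, the annotation and the strand setting were not given in the sources used here. Per the labels' protocols libraries came from 50 ng of RNA with TruSeq Stranded mRNA. The design text of the series instead names SMART-Seq v4 on 1 ng and Nextera XT.

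Counts were tested with edgeR 4.0.16 in R 4.3.3 (quasi-likelihood F-test, TMM, filterByExpr), with all 9 libraries in one fit and the group as the only term. The filter kept 13568 genes, with a common biological coefficient of variation of 0.0536. Replicates differed by 5.56 to 16.6 times counting noise (chi-square per degree of freedom). This does not show that they were separate cultures, and each library was entered as 1 sample. PCR copies could not be removed, so limits from counts cover counting error only. The test was checked on counts simulated for fed 24 h against unfed cells alone, with far fewer genes changed than were called there. Gene positions and exon lengths are from GENCODE M21 (GRCm38) and promoters from RefSeq.

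The members, the lists and the rule for named genes were chosen with earlier results of these data known. The rule names every member, at most 3 called genes per direction, comparison and list (mean of 5 CPM or more in the higher group), and the 5 genes most like Myc; some genes it picks are not reported here. Other genes named (Sin3a, Sin3b, Pvt1, Mlxipl, Gsk3a, E-box targets, overlapping genes, markers, genes of low level and genes at 0) were named for their role or after their values were seen. Alternatives were DESeq2 size factors, the DESeq2 1.42.0 Wald test, no filter, a filter at 5 CPM in 3 libraries, the replicate number as a block, the 6 libraries compared alone and each library left out. Library totals in place of TMM, the counts over MYC-induced targets, and the other lists, the balance and the correlations without unfed replicate 1, were added after seeing the data.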

Additional observations from a re-analysis of the deposited data

Results flagged for a closer look

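Mxd1, Mxd3 and Mxd4 were each called lower in fed 3 h and higher in fed 24 h than in unfed cells, so that their changes against unfed cells had opposite signs at the 2 times. In fed 24 h against unfed cells the call of Mxd3 ended when any of the 6 libraries compared was left out, that of Mxd4 when any of 3 of them was, and that of Mxd1 when fed 24 h replicate 3 was. The difference between the times was tested as fed 24 h against fed 3 h, with a log2 fold change of 0.71 for Mxd1 (edgeR adjusted p = 5.33e-06), 0.48 for Mxd3 (edgeR adjusted p = 6.14e-06) and 1.148 for Mxd4 (edgeR adjusted p = 2.51e-09). Since the unfed libraries were all collected at 24 h, the time of collection and the hours of feeding cannot be told apart.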

How the results depend on the processing

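Over 16 alternatives, 407 member fold changes kept their sign and their side of the threshold, 19 lost a call, 5 gained one and 1 changed sign. The last was Mga in fed 3 h against unfed cells, which was not called, at -0.003675 without unfed replicate 1 and at up to 0.1022 with other libraries left out. The calls that changed are given beside each member. The cause was not tested. Leaving out 1 library, members called higher ranged from 1 to 3 in fed 24 h against unfed cells and from 1 to 3 in fed 3 h against unfed cells, genes called lower in fed 24 h against unfed cells ranged from 1426 (without fed 24 h replicate 1) to 2241, and MYC-induced targets called higher in fed 24 h against fed 3 h cells ranged from 0 to 1. Without unfed replicate 1, genes of the nutrient arm called lower in fed 24 h against unfed cells were 1, genes of Myc gene and mRNA control called lower there were 4 and MYC-repressed genes called higher there were 2. With library totals in place of TMM, 2 MYC-induced targets were called higher in fed 24 h against fed 3 h cells. Scaling by library totals moved the median log2 fold change of all genes to -0.05 in fed 3 h against unfed cells and to 0.05 in fed 24 h against fed 3 h cells. No pairing of libraries by replicate number was seen, which does not show that there was none. Same-numbered libraries of different groups correlated from -0.163 to 0.0578 in their deviations from group means, and 1 of 9 libraries correlated best with its own number. With the replicate number as a block, the test called 1901 genes up and 2010 down in fed 24 h against unfed, 3317 and 3352 in fed 3 h against unfed and 4064 and 4027 in fed 24 h against fed 3 h cells, and the block changed no call of a member. Depth limits Mycn and the germline genes, which had at most 3 counts in a group.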
